A study of Mus musculus with 32 samples.

Results

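The IL-7 receptor pathway was followed at 10 genes across 24 lists of chromatin immunoprecipitation sequencing (ChIP-seq) peaks from the mouse pre-B cell line B3. The genes were Il7r and Il2rg, which encode the chains of the IL-7 receptor, the kinases Jak1 and Jak3, the transcription factors Stat5a and Stat5b, and the signalling feedback or target genes Socs2, Socs3, Cish and Pim1. They were chosen by name for their place in the pathway, as 10 of 21911 protein-coding genes. Every Ikaros, CHD4 and H3K27ac peak whose nearest edge lay within 50 kb of the transcription start site (TSS) of 1 of these genes was taken. Peaks of the 8 lists of a target that overlapped were merged into regions, which gave 62 of 23856 Ikaros regions, 39 of 15358 CHD4 regions and 87 of 39309 H3K27ac regions. The windows of Stat5a and Stat5b, which lie side by side on chromosome 11, share most of their regions, and such a region was counted once.

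All cells carried HA-tagged Ikaros (IKZF1) fused to the ERt2 domain, brought in by retrovirus, and were otherwise B3 cells. The 0 h libraries came from these cells with no treatment, and the others from cells given 500 nM 4-hydroxytamoxifen (4-OHT), which moves the fusion protein into the nucleus, for 30 min, 1 h or 2 h. HA-Ikaros, CHD4 (the remodelling ATPase of the corepressor complex NuRD) and the histone mark H3K27ac (found at active promoters and enhancers) each had 2 replicates per time. The model is 1 transduced line with an added Ikaros protein, and no library of cells without the construct was analysed, so Ikaros induction and 4-OHT itself cannot be told apart here. The labels do not say whether the replicates were separate cultures, so p-values measure only the spread between these samples, which may be technical.

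IL-7 binds a receptor made of the IL-7 receptor alpha chain (Il7r) and the common gamma chain (Il2rg). The kinases JAK1 and JAK3, bound to these chains, phosphorylate STAT5A and STAT5B, which then enter the nucleus and bind DNA at TTCNNNGAA sites. In early B cells this signal drives survival and division, its targets Cish, Socs2 and Socs3 dampen it in turn, and Ikaros is known for promoting the step from IL-7-dependent growth to differentiation.

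The Ikaros summits that the results turn on are shown from the mm10 reference, plus strand. Capitals mark GGAA, GGGA or their complements TTCC and TCCC, the core words searched for Ikaros, in windows that reach 50 bases to either side of the summit of the highest peak of the region. For Cish, where the window lies in an annotated untranslated region, only 30 bases are shown and the capitals mark TTCNNNGAA.
Cish promoter, chr9:107296654-107296683: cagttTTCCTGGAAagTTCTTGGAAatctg
Il7r promoter, chr15:9529967-9530067: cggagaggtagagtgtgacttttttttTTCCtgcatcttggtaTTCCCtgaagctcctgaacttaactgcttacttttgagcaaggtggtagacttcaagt
Il7r, 38.0 kb downstream of the TSS, chr15:9492203-9492303: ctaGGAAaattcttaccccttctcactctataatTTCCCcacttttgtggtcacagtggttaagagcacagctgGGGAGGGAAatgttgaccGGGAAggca
Jak1, 33.2 kb upstream, chr4:101298311-101298411: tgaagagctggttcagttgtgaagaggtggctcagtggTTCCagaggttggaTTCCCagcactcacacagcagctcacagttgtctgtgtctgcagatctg
Stat5b intron, 7.5 kb downstream, chr11:100843385-100843485: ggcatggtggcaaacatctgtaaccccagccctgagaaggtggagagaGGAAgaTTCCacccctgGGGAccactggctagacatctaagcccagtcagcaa
Stat5b, 2.3 kb upstream, chr11:100853276-100853376: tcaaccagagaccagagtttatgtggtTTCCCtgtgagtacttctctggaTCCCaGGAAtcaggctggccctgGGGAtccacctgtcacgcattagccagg
Socs2 intron, 20 kb downstream, chr10:95397605-95397705: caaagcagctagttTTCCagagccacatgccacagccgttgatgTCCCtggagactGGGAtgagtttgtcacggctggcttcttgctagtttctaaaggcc
Pim1, 41.3 kb downstream, chr17:29532090-29532190: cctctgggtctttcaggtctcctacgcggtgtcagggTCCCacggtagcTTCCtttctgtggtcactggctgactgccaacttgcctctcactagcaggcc
In Cish, 3 of the 4 GGAA or TTCC words of the window lay inside the 2 TTCNNNGAA words. Of 23856 Ikaros summit windows, 22 (0.0922%) held TTCNNNGAA at least 2 times, and the Cish window was the 1 such window near the 10 genes. The word, which reads the same on both strands, occurred in 6 of 62 windows near these genes (9.68%) and in 825 of all windows (3.46%). In the Il7r promoter window it overlapped the TTCCC word. GGAA or TTCC was found in 82.3% of the windows near these genes and in 80.6% of all windows, GGGA or TCCC in 75.8% and 78.3%, and GGGAA or TTCCC, which contain both kinds of word, in 33.9% and 39.5%. A match describes the letters only, and binding of STAT5 was not measured.

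Promoters of 300 bases in RefSeq (GRCm38.p6) were matched for 9 of the 10 genes, with 12 promoters among them. TTCNNNGAA was present in 3 of the 12, those of Cish (2 words, at positions 0 and 11 from the RefSeq start), Il7r (position -142) and Socs3 (position -154). Among 32851 promoters of this length, 8.30% held the word at least once and 0.457% at least 2 times.

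Depth, recovered from the lists, was 3.13 to 3.59 fragments per base in the 0 h Ikaros libraries and 1.98 to 2.85 in the later ones. The H3K27ac libraries had 3.75 to 4.34 fragments per base, and the depth behind the CHD4 lists is unknown. Lists held 5373 to 14874 Ikaros peaks, 2488 to 9593 CHD4 peaks and 21468 to 33664 H3K27ac peaks. As a check of the cell type, 9 of 10 pre-B genes (Pax5 and Ebf1 among them) had an H3K27ac peak within 1 kb of a TSS in both 0 h libraries, and the remaining pre-B gene, Rag1, had it in 1 library. Of the other lists, 1 of 5 T cell genes (Lck), 0 of 5 myeloid genes, 1 of 3 erythroid genes (Klf1) and 0 of 3 non-haematopoietic genes did. Lyz2, among the myeloid genes, had a peak in 1 of these libraries.

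Peaks of all 3 targets were denser near the 10 genes than near genes in general. Over the 8 libraries of a target, the mean number of peaks within 50 kb of a TSS, with a peak shared by Stat5a and Stat5b counted for both, was 3.51 for each of the 10 genes and 1.15 per protein-coding gene for Ikaros. It was 1.88 and 0.471 for CHD4, and 6.66 and 2.51 for H3K27ac. The genes were not chosen by these counts, but earlier results of these data were known. No comparison was made with active genes alone. At 0 h, 8 of the 10 genes and 44.4% of protein-coding genes had promoter H3K27ac in both libraries. Of the 62 Ikaros regions 16 lay within 1 kb of an annotated TSS of 1 of the 10 genes in whose window they fell, 6 at a TSS of another gene and 40 elsewhere, called distal here. The split was 9, 1 and 29 for the CHD4 regions and 11, 9 and 67 for the H3K27ac regions. Median Ikaros peak width in a library was 422 to 594 bases near these genes and 401 to 545 bases over whole lists. H3K27ac peaks near these genes were narrower, with medians of 568 to 1054 bases against 708 to 1334 bases. The Il7r window alone held 34 of the 89 and 28 of the 68 H3K27ac peaks near these genes at 2 h, and widths without it were not computed.

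**Figure D1:**
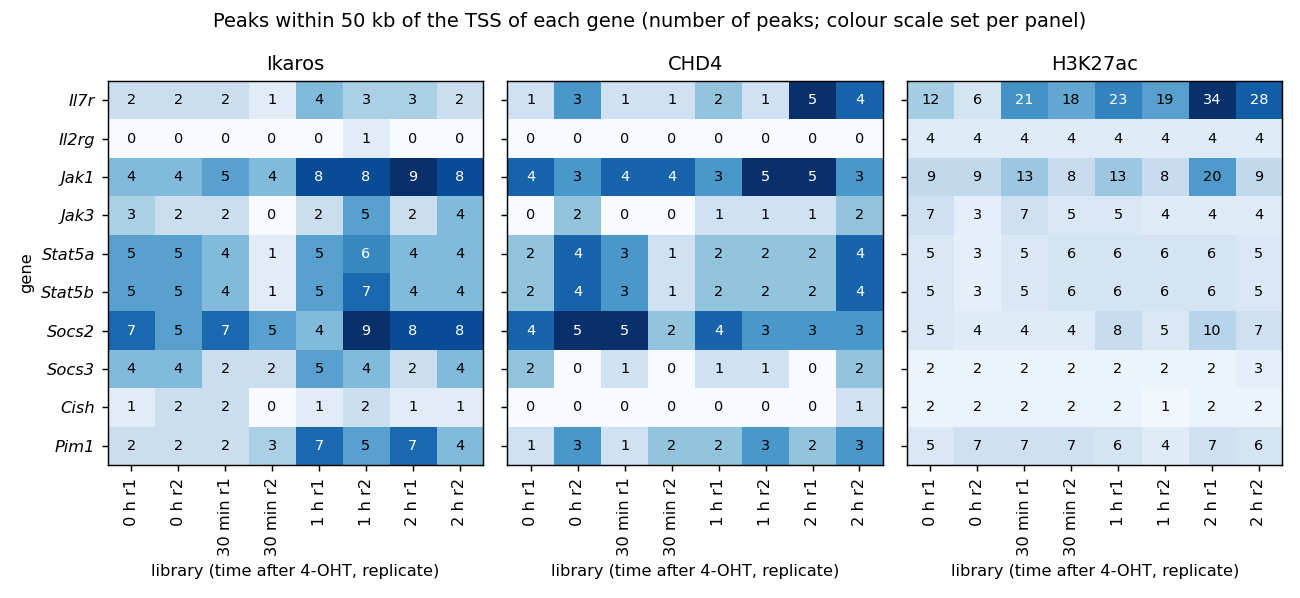
Number of peaks within 50 kb of the TSS of each gene (vertical axis) in each of the 8 libraries of Ikaros, CHD4 and H3K27ac (horizontal axis: time after 4-OHT and replicate), with the number written in each cell and the colour scale set per panel. The Il7r row of the H3K27ac panel goes from 12 and 6 peaks at 0 h to 34 and 28 at 2 h, and Il2rg and Cish have few or no CHD4 peaks.

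Regions called in all 8 libraries were 9 of 62 for Ikaros (14.5%, against 9.66% of all Ikaros regions), 5 of 39 for CHD4 (12.8% against 4.71%) and 24 of 87 for H3K27ac (27.6% against 37.4%). An overlapping CHD4 region was found for 35 of the 62 Ikaros regions (56.5%, against 54.6% of all Ikaros regions). An overlapping H3K27ac region was found for 47 (75.8%, against 87.4%). All 9 Ikaros regions called in every library overlapped H3K27ac, and 8 of them overlapped CHD4.

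At their own promoters, 8 of the 10 genes carried H3K27ac in both libraries of every time, where 44.4%, 45.0%, 43.1% and 42.9% of protein-coding genes did so at 0 h, 30 min, 1 h and 2 h. Cish and Socs3, both feedback inhibitors, had no H3K27ac peak within 1 kb of a TSS in any library. Ikaros was called at the promoter in both libraries for 6, 2, 8 and 6 genes at 0 h, 30 min, 1 h and 2 h, against 12.0%, 7.17%, 21.9% and 21.9% of protein-coding genes. CHD4 was called in both libraries for 2, 1, 1 and 2 genes, against 2.13%, 2.59%, 4.97% and 5.89%. Socs2 was the 1 gene with CHD4 at a promoter in all 8 libraries.

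The receptor genes differed widely. Il7r had Ikaros peaks at its promoter and at a distal region 38.0 kb downstream, past the end of the gene. Ikaros fold enrichment, the authors' ratio of the signal at the summit to the local background, was 8.62 and 9.34 at the promoter region (chr15:9528047-9530758) at 0 h. It was 5.63 and 7.17 at 30 min, 4.80 and 6.22 at 1 h, and 3.85 and 6.20 at 2 h. All 6 later libraries were therefore below both 0 h libraries, which were the deepest Ikaros libraries. The share of all Ikaros regions with this order was not computed. With limma the centred log2 change was -0.81 ± 0.35 (SE) at 1 h (adjusted p = 0.154) and -0.79 ± 0.35 at 2 h (adjusted p = 0.192), so neither passed the threshold of 0.05. At the downstream region (chr15:9491821-9492490) the folds were 4.90 and 9.09 at 0 h, 7.06 in replicate 1 at 30 min with no peak in replicate 2, 4.49 and 3.37 at 1 h, and 4.16 and 4.79 at 2 h. CHD4 overlapped that region in 6 of 8 libraries, with folds of 2.97 to 3.74, and was called at the Il7r promoter in 1 library at 0 h (3.58), none at 30 min, 1 at 1 h (3.11) and both at 2 h (3.02 and 3.84).

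More H3K27ac peaks were called around Il7r after 4-OHT. The number within 50 kb of the TSS was 12 and 6 at 0 h, 21 and 18 at 30 min, 23 and 19 at 1 h, and 34 and 28 at 2 h. Every later library exceeded both 0 h libraries, which was also true of 6.52%, 8.01% and 11.9% of protein-coding genes at 30 min, 1 h and 2 h. The mean rise of 10.5, 12 and 22 peaks ranked Il7r 1, 2 and 2 among 21911 genes at these times. Bfsp2 ranked first at 1 h. Il7r was singled out, and Bfsp2 named, after the values had been seen, so these ranks are a description.

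The rise was also present in lists of equal length. With the lists cut to equal length by fold, highest first, Il7r had 5 and 6 peaks at 0 h, 7 and 13 at 30 min, 11 and 14 at 1 h, and 20 and 20 at 2 h, and ranked 4 (tied) at 30 min and first at 1 h and 2 h. In a 20 kb window the ranks were 1, 7 (tied) and 1, and in a 100 kb window 8, 2 and 3. Socs2 was the other gene whose 2 h libraries both exceeded 0 h in the full lists, with 5 and 4 peaks at 0 h and 10 and 7 at 2 h. Without any 1 of the 0 h or 2 h libraries the Il7r rank at 2 h in the full lists was 2 or 3. Chromosome 15 held 4.15% to 4.41% of each H3K27ac list, with no order in time.

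Most of the added peaks were weak. Peaks with a fold under 6 numbered 10 and 4 at 0 h and 31 and 25 at 2 h, and those at or above 6 numbered 2 or 3 in every library. The bases covered went from 17.6 and 14.9 kb at 0 h to 25.4 and 22.7 kb at 30 min, 24.4 and 21.3 kb at 1 h, and 39.7 and 26.8 kb at 2 h, a smaller rise than that of the peak number. The downstream region near 37 kb held 2 and 2 peaks at 0 h, 1 and 2 at 30 min, 4 and 5 at 1 h, and 3 and 4 at 2 h, so part of the count came from its division into more peaks. By 100 kb bins, the 100 kb downstream of the TSS held 16 and 10 peaks at 0 h and 32 and 30 at 2 h, and the 100 kb upstream held 4 and 3, then 23 and 9. Between 100 and 300 kb upstream there were 4 and 3 peaks at 0 h, 5 and 3 at 30 min, 4 and 4 at 1 h, and 16 and 10 at 2 h. Between 100 and 300 kb downstream there were 0 at 0 h and at 2 h.

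**Figure D2:**
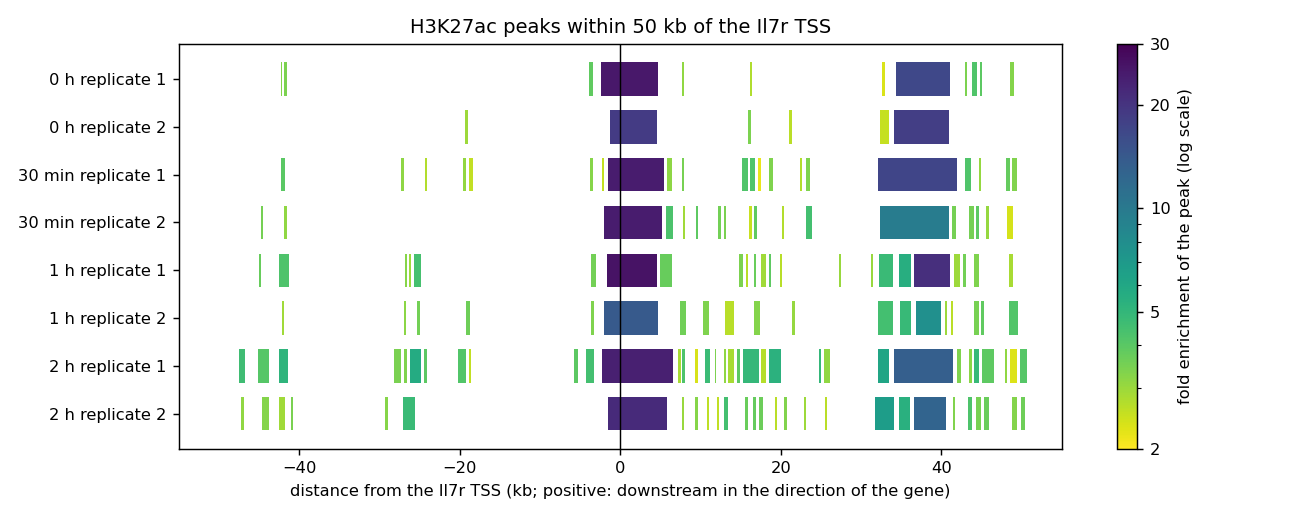
H3K27ac peaks within 50 kb of the Il7r TSS in each of the 8 libraries (rows), drawn to scale by distance from the TSS in kb (horizontal axis, positive in the direction of the gene) and coloured by fold enrichment on a log scale. Peaks at the promoter and near 37 kb appear in all 8 libraries, and the thin, low-fold peaks between and around them number 10 and 4 at 0 h and 31 and 25 at 2 h.

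The strong Il7r regions were called in every library. H3K27ac fold at the promoter region (chr15:9523653-9532549) was 25.2 and 18.8 at 0 h, 24.5 and 24.4 at 30 min, 26.3 and 14.1 at 1 h, and 23.6 and 21.7 at 2 h. At the downstream region (chr15:9487696-9498444, centred at 37.1 kb) it was 16.7 and 18.3, then 17.3 and 9.76, 20.9 and 7.83, and 13.4 and 12.6. At the promoter the libraries of 0 h and 2 h overlapped (adjusted p = 0.365), and at the downstream region both 2 h libraries lay below both 0 h libraries (adjusted p = 0.972 for the centred change). A weaker intronic region (chr15:9511968-9515688, 16.3 kb downstream) had folds of 2.77 and 3.43 at 0 h, 4.21 and 3.89 at 30 min, 3.72 and 3.30 at 1 h, and 4.95 and 3.79 at 2 h. Its log2 change at 2 h was 0.95 ± 0.32 (adjusted p = 0.157).

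Of 87 H3K27ac regions near the 10 genes, 9 were called in both 2 h libraries and in neither 0 h library, where 3.73% of all H3K27ac regions were. The count was 3 in lists of equal length, 4 within 20 kb and 5 among peaks with a fold of 3 or more. It was 14 without replicate 1 of 0 h, and 16 and 27 without replicate 1 and replicate 2 of 2 h. All 9 lay near Il7r, between positions 50.2 and -47.2 kb from the TSS. Their folds at 2 h ran from 2.36 to 5.74, and the highest was the region 26.1 kb upstream, with 5.74 and 4.81. No region near these genes was called in both 0 h libraries and neither 2 h library (2.78% of all regions). CHD4 peaks near Il7r numbered 1 and 3 at 0 h, 1 and 1 at 30 min, 2 and 1 at 1 h, and 5 and 4 at 2 h, and the 2 h libraries exceeded both 0 h libraries at 6.94% of genes. In lists of equal length the CHD4 counts were 1 and 2 at 0 h, 1 and 0 at 30 min, 0 and 0 at 1 h, and 2 and 1 at 2 h.

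Il2rg, on chromosome X, was the plainest locus. It had 4 H3K27ac peaks in each of the 8 libraries, no CHD4 peak and 1 Ikaros peak in all (1 h replicate 2, fold 3.71, at the promoter of the neighbour Med12). H3K27ac at its promoter (chrX:101267570-101268197) had folds of 4.41 and 4.76 at 0 h, 6.94 and 5.84 at 30 min, 5.14 and 4.55 at 1 h, and 5.54 and 4.24 at 2 h. The replicates of 1 h and 2 h overlapped those of 0 h. At the Med12 promoter (chrX:101273073-101274695), which encodes a Mediator subunit, the folds were 7.87 and 5.80 at 0 h and 10.1 and 6.40 at 2 h (log2 change 0.71 ± 0.28, adjusted p = 0.237).

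Among the kinases, Jak1 had more Ikaros peaks called at 1 h and 2 h. The number within 50 kb was 4 and 4 at 0 h, 5 and 4 at 30 min, 8 and 8 at 1 h, and 9 and 8 at 2 h. The 1 h libraries exceeded both 0 h libraries at 19.7% of genes and the 2 h libraries at 21.8%, so a rise in peak number was common. In lists of equal length the counts were 3 and 2 at 0 h, 3 and 4 at 30 min, 3 and 2 at 1 h, and 2 and 0 at 2 h, so no later time stood above 0 h without overlap. No Ikaros peak was called at the Jak1 promoter at 0 h, and it was called in replicate 1 at 30 min (3.57), both libraries at 1 h (4.99 and 4.72) and replicate 2 at 2 h (4.57). CHD4 was called there in 1 library, replicate 1 of 2 h (fold 3.6).

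The strongest Ikaros signal near Jak1 was upstream, in an intron of the noncoding gene Gm12796. The region at 33.2 kb (chr4:101297922-101299038) had folds of 8.67 and 6.47 at 0 h, 6.44 and 5.93 at 30 min, 5.29 and 7.23 at 1 h, and 5.97 and 4.88 at 2 h. CHD4 covered the same stretch in all 8 libraries (chr4:101296529-101302111), with 3.99 and 3.59 at 0 h and 3.07 and 3.31 at 2 h. H3K27ac there (chr4:101295776-101302469, 33.8 kb upstream) was 26.8 and 17.1 at 0 h, 12.2 and 14.6 at 30 min, 12.3 and 6.22 at 1 h, and 12.4 and 5.66 at 2 h. All 6 later libraries lay below both 0 h libraries, with log2 changes of -0.99 ± 0.37 at 1 h (adjusted p = 0.253) and -0.89 ± 0.37 at 2 h (adjusted p = 0.252). The neighbouring H3K27ac region 27.4 kb upstream had 31.8 and 22.8 at 0 h and 11.5 and 16.5 at 2 h, and the Jak1 promoter (chr4:101262782-101266489) had 26.7 and 21.3 at 0 h and 15.1 and 15.5 at 2 h. Part of these differences is shared by all regions. The median H3K27ac fold over the genome changed by 0.05 at 30 min, -0.24 at 1 h and -0.41 at 2 h on the log2 scale. The log2 changes given here are relative to it. For this and the other genes, the share of all H3K27ac regions whose later libraries lay below both 0 h libraries was not computed.

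Jak3 had a promoter peak of each target. Ikaros fold at the promoter was 3.67 and 3.48 at 0 h, 4.29 in replicate 1 at 30 min with no peak in replicate 2, 5.26 and 5.26 at 1 h, and 4.15 and 4.48 at 2 h. H3K27ac fold at the promoter (chr8:71675904-71678271) was 16.6 and 12.8 at 0 h, 15.8 and 8.75 at 30 min, 10.4 and 11.0 at 1 h, and 6.95 and 9.96 at 2 h. Both 2 h libraries lay below both 0 h libraries, by -0.35 ± 0.30 once centred (adjusted p = 0.61). CHD4 was called there in replicate 2 only, at 0 h, 1 h and 2 h (3.27 to 3.48). The distal H3K27ac region with the highest rank near Jak3, at -47.3 kb in Unc13a, was called in 7 of 8 libraries with folds of 3.57 to 7.58.

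The STAT5 locus held the strongest Ikaros peak near the 10 genes. It lay in an intron of Stat5b, 7.5 kb downstream of its TSS (chr11:100842642-100843779), with folds of 14.4 and 9.51 at 0 h, 14.7 and 6.84 at 30 min, 12.8 and 10.4 at 1 h, and 9.10 and 11.6 at 2 h. The times overlapped, and the log2 change at 2 h was -0.11 ± 0.36. CHD4 was called on it in all 8 libraries, with 3.61 and 3.80 at 0 h, 5.25 and 3.77 at 30 min, 4.67 and 3.81 at 1 h, and 3.82 and 3.61 at 2 h. H3K27ac there was 8.41 and 2.85 at 0 h and 5.49 and 5.08 at 2 h, and its 0 h replicates were further apart than those of any other time.

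A second Stat5b region was high at 0 h. Ikaros 2.3 kb upstream of the Stat5b TSS (chr11:100852418-100853631) had folds of 8.62 and 9.83 at 0 h, 3.64 in replicate 1 at 30 min with no peak in replicate 2, 4.55 and 5.26 at 1 h, and 3.37 and 4.16 at 2 h. The mean was 9.22 ± 0.859 (SD, n = 2) at 0 h and 3.77 ± 0.556 at 2 h, and every later peak was below both 0 h libraries. How common this order was among all Ikaros regions was not computed, and the 0 h Ikaros libraries were the deepest. The region was called in 7 of 8 libraries and so was outside the fit. At the Stat5b promoter itself Ikaros was 3.45 and 3.70 at 0 h, absent from the 30 min lists, 5.40 and 3.62 at 1 h, and 4.94 and 4.29 at 2 h. CHD4 at that promoter (chr11:100850720-100851425) was called in both 0 h libraries (3.53 and 3.20) and in no later one. Ikaros peaks within 50 kb of the Stat5b TSS, and likewise of the Stat5a TSS, numbered 5 and 5 at 0 h, 4 and 1 at 30 min, and 4 and 4 at 2 h. Both later libraries were below both 0 h libraries at 7.57% of genes at 30 min and 1.83% at 2 h. In lists of equal length the counts were 2 and 3 at 0 h, 2 and 1 at 30 min, and 3 and 1 at 2 h.

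Stat5a carried a promoter H3K27ac region (chr11:100859766-100862584) that was lower at 1 h and 2 h in every library. Its folds were 10.8 and 11.5 at 0 h, 10.7 and 10.5 at 30 min, 6.06 and 6.07 at 1 h, and 5.26 and 2.65 at 2 h. The mean was 11.1 ± 0.525 (SD, n = 2) at 0 h and 3.96 ± 1.85 at 2 h. The centred log2 change at 2 h was -1.12 ± 0.34 (unadjusted p = 0.00528, adjusted p = 0.127, limma). The Ikaros region that reaches this promoter (chr11:100860116-100861951) was called in both 0 h libraries (3.67 and 4.93, the latter peak lying over 1 kb from any TSS of the gene), in replicate 1 at 30 min (3.55), in both at 1 h (3.88 and 5.36) and in neither at 2 h. H3K27ac at the Stat5b promoter was 6.41 and 7.53 at 0 h and 4.55 and 5.38 at 2 h, a centred change of -0.03 ± 0.32. CHD4 at the Stat5a promoter was called in 1 library each at 30 min (2.82), 1 h (3.64) and 2 h (3.63), in 2 regions.

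Socs2, whose product inhibits cytokine signalling, had the most Ikaros peaks of the 10 genes over the 8 libraries, with 4 to 9 in each. Ikaros at the promoter (chr10:95414218-95419396) had folds of 7.54 and 10.3 at 0 h, 12.1 and 5.03 at 30 min, 8.81 and 6.90 at 1 h, and 5.83 and 10.6 at 2 h, with no separation of the times. CHD4 there was 3.70 and 3.95 at 0 h, 3.88 and 3.73 at 30 min, 3.89 and 3.24 at 1 h, and 3.10 and 3.13 at 2 h. Both 2 h libraries had the lowest values, with a log2 change of -0.19 ± 0.12 (adjusted p = 0.809). CHD4 peaks within 50 kb of the Socs2 TSS numbered 4 and 5 at 0 h and 3 and 3 at 2 h. The 2 h libraries were below both 0 h libraries at 0.616% of genes. In lists of equal length the CHD4 counts were 4 and 2 at 0 h and 1 and 0 at 2 h.

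H3K27ac at the Socs2 promoter (chr10:95412806-95420010) had folds of 15.1 and 15.7 at 0 h, 16.6 and 11.4 at 30 min, 9.17 and 6.08 at 1 h, and 6.52 and 7.37 at 2 h. The 4 libraries of 1 h and 2 h were all below the 4 earlier ones. The mean was 15.4 ± 0.379 (SD, n = 2) at 0 h and 6.95 ± 0.598 at 2 h. The centred log2 change was -0.75 ± 0.26 at 1 h (adjusted p = 0.222) and -0.69 ± 0.26 at 2 h (adjusted p = 0.21). The median H3K27ac fold over all regions changed by -0.24 at 1 h and -0.41 at 2 h on the log2 scale. How common such a separation was among all H3K27ac regions was not computed.

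In the Socs2 intron, 20 kb downstream (chr10:95395950-95398433), Ikaros had folds of 8.53 and 11.9 at 0 h, 6.15 and 6.85 at 30 min, 6.12 and 5.16 at 1 h, and 3.70 and 8.86 at 2 h. Replicate 2 at 2 h exceeded replicate 1 at 0 h. The log2 change was -0.93 ± 0.36 at 1 h (adjusted p = 0.105) and -0.73 ± 0.36 at 2 h (adjusted p = 0.244). Around it, 2 Ikaros regions, 21.9 and 26.1 kb downstream, were called in both 2 h libraries and in neither 0 h library, with folds of 5.29 and 3.84, and of 2.94 and 4.16. The region 28.2 kb downstream was called by Ikaros and CHD4 in all 8 libraries, with Ikaros folds of 4.08 to 7.55 and CHD4 folds of 3.02 to 4.12. At further annotated starts of Socs2, 3 weaker Ikaros regions were called in 1 to 3 libraries each (3.11 to 4.42), CHD4 in 7 libraries at 22.2 kb (2.78 to 3.59) and H3K27ac in 2 libraries at 5.2 kb (3.15 and 3.39). The distal H3K27ac region with the highest rank, 49.3 kb downstream, had folds of 9.68 and 10.7 at 0 h, 12.4 and 8.15 at 30 min, 5.35 and 5.06 at 1 h, and 7.75 and 7.29 at 2 h. All 4 libraries of 1 h and 2 h were below both 0 h libraries (adjusted p = 0.302 at 1 h and 0.978 at 2 h).

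Cish, the classical STAT5 target, had Ikaros alone at its promoter. The region chr9:107295906-107297369, whose summit window holds the 2 TTCNNNGAA words printed above, had Ikaros folds of 8.40 and 10.6 at 0 h, 3.47 in replicate 1 at 30 min with no peak in replicate 2, 10.2 and 7.73 at 1 h, and 6.75 and 7.04 at 2 h. The 1 value at 30 min was the lowest by fold but not by recovered summit fragments (26, against 35 and 24 at 1 h and 25 and 21 at 2 h), and the 1 h folds overlapped those of 0 h. Neither CHD4 nor H3K27ac was called within 1 kb of a Cish TSS in any of their 8 libraries. Within 50 kb, CHD4 had 1 peak, 17.1 kb downstream in replicate 2 at 2 h (3.04), and H3K27ac was called over the same place in 6 libraries (3.55 to 5.66). The distal Ikaros region with the highest rank, 29.4 kb downstream, was called in replicate 2 of 0 h only (5.63).

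Socs3, the other inhibitor without promoter H3K27ac, had Ikaros at its promoter in 1 library, replicate 2 of 2 h (5.76), and distal Ikaros peaks that were called at some times only. Upstream, 4.6 kb from the TSS, Ikaros was called in both 0 h libraries (8.19 and 5.19), in replicate 2 at 1 h (4.64) and in no other later library. A region 10.0 kb downstream was called in both 0 h libraries (5.39 and 5.17) and in replicate 1 at 1 h (3.69). A region 17.7 kb downstream was absent at 0 h and 30 min and had 4.46 and 4.97 at 1 h, and 4.42 and 5.12 at 2 h. The most stable region, 23.1 kb downstream (chr11:117946330-117947498), was called in 7 of 8 libraries with folds of 2.96 to 6.72, with CHD4 on it in 5 libraries and H3K27ac in 7. Ikaros peaks within 50 kb of the Socs3 TSS numbered 4 and 4 at 0 h and 2 and 2 at 30 min, and 7.57% of genes were lower in both libraries at that time. In lists of equal length the counts were 3 and 2, then 0 and 2.

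Pim1, a survival kinase induced by STAT5, had 2 and 2 Ikaros peaks at 0 h, 2 and 3 at 30 min, 7 and 5 at 1 h, and 7 and 4 at 2 h. In lists of equal length the counts were 2 and 1 at 0 h, 1 and 3 at 30 min, 2 and 2 at 1 h, and 2 and 1 at 2 h. A region 41.3 kb downstream (chr17:29531568-29532491), in an intron of Tmem217, had no Ikaros peak at 0 h. It had folds of 5.93 and 4.10 at 30 min, 5.58 and 6.19 at 1 h, and 5.46 and 8.96 at 2 h. H3K27ac at that place was 5.50 and 6.95 at 0 h and 3.96 and 3.48 at 2 h. At the promoter, Ikaros had 5.82 and 2.85 at 0 h and 4.43 and 3.61 at 2 h, and H3K27ac in the region covering the start of the gene (chr17:29490740-29496366) had 12.2 and 8.90 at 0 h, 15.6 and 9.82 at 30 min, 10.7 and 7.76 at 1 h, and 8.60 and 7.55 at 2 h.

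The other promoter H3K27ac region of Pim1, just upstream (chr17:29488423-29490471), had folds of 15.1 and 17.1 at 0 h, 11.1 and 13.0 at 30 min, 10.4 and 8.44 at 1 h, and 8.89 and 7.68 at 2 h. All 6 later libraries were below both 0 h libraries, with a centred log2 change of -0.50 ± 0.29 at 2 h (adjusted p = 0.433). The distal H3K27ac region with the highest rank, 12.2 kb downstream, had 11.3 and 6.72 at 0 h and 3.41 and 4.52 at 2 h (-0.69 ± 0.31, adjusted p = 0.293). CHD4 was called 11.3 kb downstream in 7 libraries (2.99 to 3.46) and at the promoter in replicate 1 of 2 h (3.09), and Ikaros at 4 further promoter places in 1 to 3 libraries each (3.39 to 5.20).

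**Figure D3:**
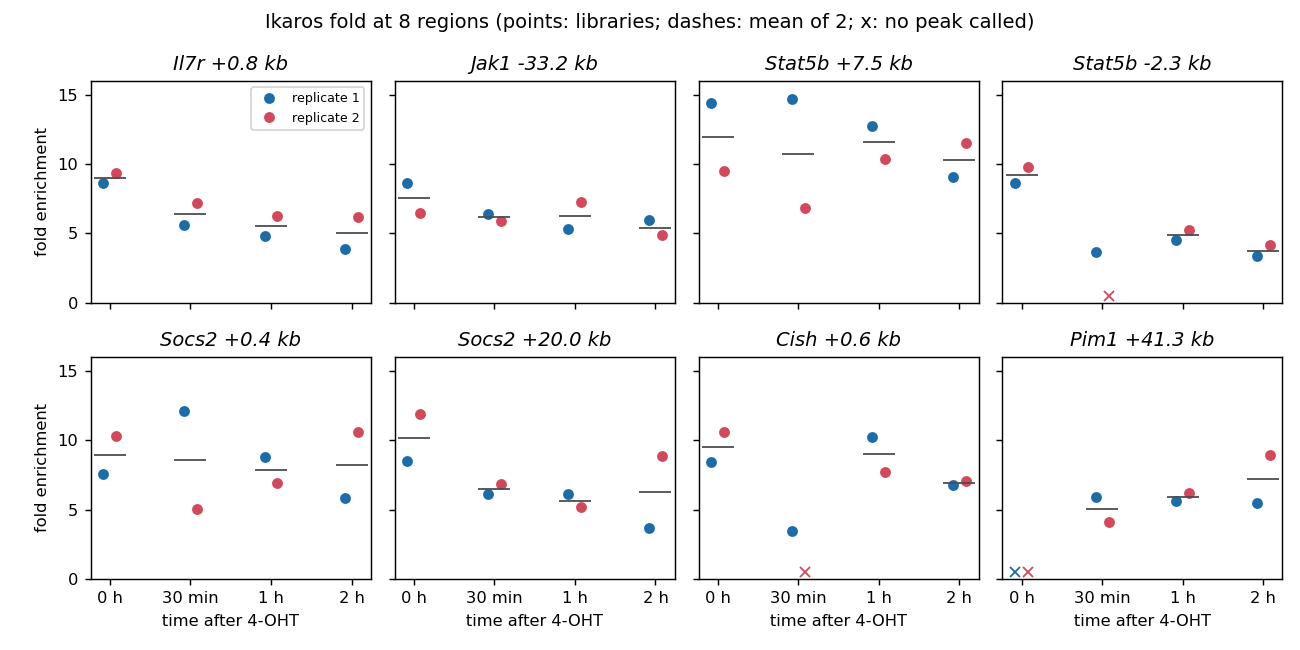
Ikaros fold enrichment (vertical axis, from 0) at 8 regions, by time after 4-OHT (horizontal axis). Points are libraries, dashes the mean of 2 libraries and crosses libraries with no called peak. Stat5b +7.5 kb is highest, Stat5b −2.3 kb goes from 8.62 and 9.83 at 0 h to 3.37 and 4.16 at 2 h, and Pim1 +41.3 kb has no peak at 0 h.

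Across all 10 genes, 6 of 62 Ikaros regions were called in both 2 h libraries and neither 0 h library, against 12.0% of all Ikaros regions. The count was 2 in lists of equal length and 2 within 20 kb, and it was 15 and 17 without replicate 1 and replicate 2 of 2 h. The 6 regions lay near Jak1 (20.3 kb downstream, 4.01 and 3.55 at 2 h), Jak3 (46.8 kb downstream, at the promoter of Fcho1, 5.83 and 8.96), Socs2 (2 regions), Socs3 and Pim1, as described. The opposite pattern was seen for 4 regions, against 3.59% of all, at the Stat5a promoter region, 43.1 kb upstream of Jak3 and at 2 places near Socs3. For CHD4 it was 0 of 39 regions (5.30% of all) and 1 region, the Stat5b promoter (1.45% of all). Without 1 library at a time, the regions called at 0 h and not at 2 h numbered 5 to 7 for Ikaros and 2 to 4 for CHD4, and the CHD4 regions called at 2 h and not at 0 h numbered 0 to 9. The 0 h Ikaros libraries were the deepest of that target, while their lists were shorter than those of 1 h and 2 h, and the part of depth in these counts was not tested.

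The same comparison was made at 30 min and 1 h. For Ikaros at 30 min, 2 regions (2.04% of all Ikaros regions) were called in both libraries and in neither 0 h library, and 5 (5.51% of all) were called the other way. The first were the Pim1 region at 41.3 kb and 1 that lay 6.3 kb upstream of Socs3 (3.97 and 3.35). Those called the other way were the Stat5b promoter, 3 that were also in the 2 h list (2 near Socs3 and the region 43.1 kb upstream of Jak3, with 4.10 and 5.87 at 0 h), and 1 that lay 7.6 kb downstream of Pim1 (5.82 and 6.05 at 0 h). At 1 h, 7 Ikaros regions (11.3% of all) were called in both libraries and neither 0 h library, and 1 the other way (2.83% of all). Of the 7, 4 were also in the 2 h list, and the others were the Jak1 promoter, a second Pim1 promoter region and the region 6.3 kb upstream of Socs3. The 1 was the region 43.1 kb upstream of Jak3.

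For CHD4 the numbers were 0 (1.50% of all CHD4 regions) and 2 (2.22%) at 30 min, and 1 (4.06%) and 1 (1.58%) at 1 h. CHD4 was called at the Pim1 region at 41.3 kb in both 1 h libraries (3.52 and 3.39) and in neither 0 h library. The Stat5b promoter went the other way at 30 min, 1 h and 2 h, and the region 27.1 kb upstream of Jak1 (3.30 and 3.75 at 0 h) did so at 30 min, with peaks in both libraries again at 1 h and 2 h. For H3K27ac they were 3 (2.29% of all H3K27ac regions) and 0 (0.743%) at 30 min, and 1 (1.61%) and 0 (2.09%) at 1 h. The H3K27ac regions were 2 in the Il7r window and 1 in that of Stat5a and Stat5b at 30 min (7.79 and 3.84), and at 1 h the region 26.1 kb upstream of Il7r (4.44 and 3.58).

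**Figure D4:**
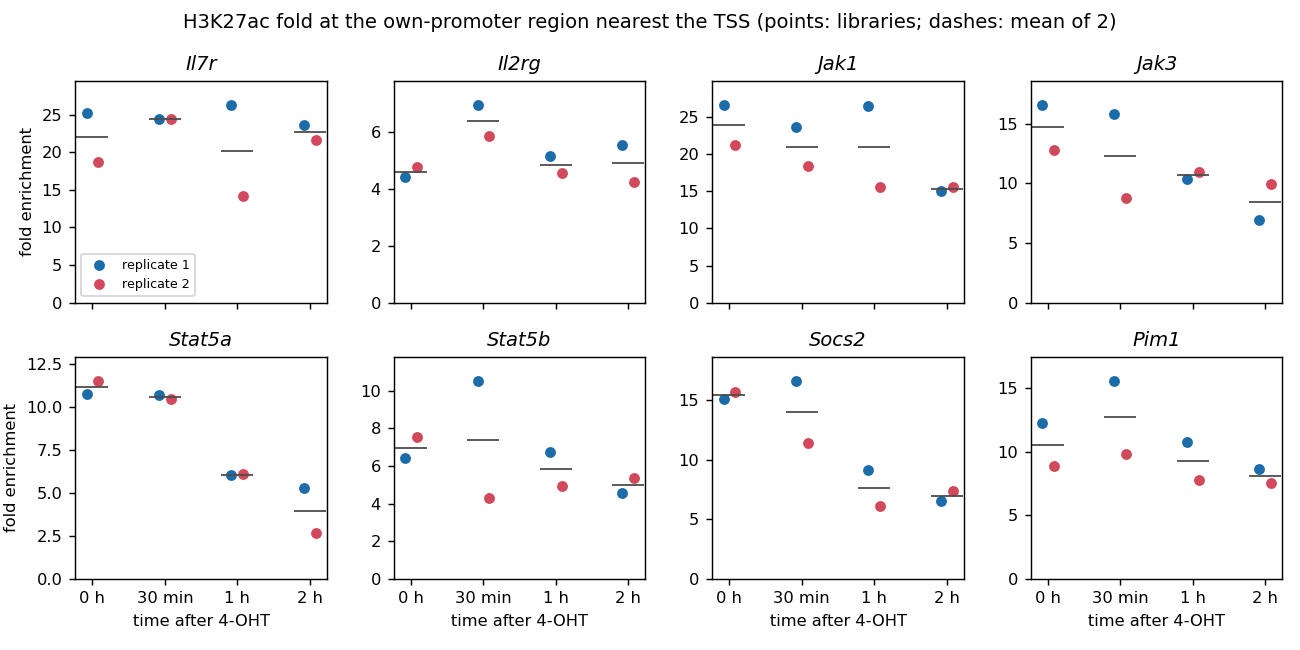
H3K27ac fold enrichment (vertical axis, from 0, scaled per panel) at the own-promoter region nearest the TSS of each of the 8 genes that had one, by time after 4-OHT (horizontal axis). Points are libraries and dashes the mean of 2. Socs2 goes from 15.1 and 15.7 at 0 h to 6.52 and 7.37 at 2 h and Stat5a from 10.8 and 11.5 to 5.26 and 2.65, whereas at Il7r the 2 h values, 23.6 and 21.7, lie between those of 0 h.

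In the fit of fold enrichment across all regions called in all 8 libraries, no region near the 10 genes passed an adjusted p of 0.05 in limma. For Ikaros, 9 regions were tested, and 0, 2 and 2 of them had an unadjusted p below 0.05 at 30 min, 1 h and 2 h, against 17.0%, 22.8% and 20.3% of all Ikaros regions. After adjustment, over all 2305 Ikaros regions, 0.477% were called higher and 2.82% lower at 30 min, 1.74% and 4.86% at 1 h, and 1.21% and 4.69% at 2 h. For CHD4, 5 regions were tested, none with an unadjusted p below 0.05 at any time (6.36%, 6.09% and 7.33% of all), and 0 were called on the −log10 p scale (0.277%, 1.38% and 0.692% of all). By fold, of 723 CHD4 regions, 0.138% were called higher and 0% lower at 30 min, 0.415% and 0% at 1 h, and 0.415% and 0.138% at 2 h. For H3K27ac, 24 regions were tested, and 1, 4 and 7 had an unadjusted p below 0.05, against 9.47%, 13.7% and 15.9% of all. After adjustment, of 14716 H3K27ac regions, 0% were called higher and 0.00680% lower at 30 min, 0.0408% and 0.190% at 1 h, and 0.183% and 0.224% at 2 h. The median centred change at 1 h was 0.07 over 15 promoter regions and -0.22 over 9 distal regions near the genes (7 of the 9 negative), beside 0.07 and 0.03 over all promoter and distal regions. At 2 h it was -0.03 over the same 15 and 0.03 over the same 9, beside 0.03 and 0.11 over all.

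The number of fragments at each summit, recovered from the fold and the p of the narrow lists, gave a second scale. On it, limma called more regions everywhere: 1.09% of H3K27ac regions higher and 4.04% lower at 30 min, 9.60% and 7.45% at 1 h, and 14.1% and 7.97% at 2 h. Near the 10 genes it called 0 of 24 regions at 30 min, 4 at 1 h (all lower) and 3 at 2 h (2 higher and 1 lower). The split of calls over all regions depended on the scale and on the centring. At 2 h it was 27 higher and 33 lower by fold, 2077 and 1173 by pileup, and 146 and 3885 by pileup divided by library coverage without centring. At 1 h the corresponding counts were 6 and 28, 1412 and 1097, and 109 and 1278. For Ikaros at 1 h they were 40 and 112, 195 and 278, and 177 and 98.

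Among the 4 H3K27ac regions called at 1 h, the Socs2 promoter had the largest change. The summit of its promoter region held 93 and 89 H3K27ac fragments at 0 h, 78 and 58 at 30 min, 51 and 34 at 1 h, and 32 and 41 at 2 h. The centred log2 change was -0.79 at 1 h (adjusted p = 0.00329) and -0.75 at 2 h (adjusted p = 0.00373). Divided by coverage, the changes were -1.04 and -1.23. The call was lost without replicate 2 of 0 h (adjusted p = 0.055 at 1 h and 0.053 at 2 h) and, at 2 h, without replicate 1 of 2 h (0.059).

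Stat5a had 58 and 65 fragments at 0 h, 67 and 53 at 30 min, 35 and 30 at 1 h, and 30 and 28 at 2 h at its promoter summit. The change was -0.58 at 1 h (adjusted p = 0.0401) and -0.51 at 2 h (adjusted p = 0.0631). Without replicate 1 or 2 of 0 h the adjusted p at 1 h was 0.076 or 0.30, and without replicate 1 or 2 of 1 h it was 0.22 or 0.053. The Jak1 region 33.8 kb upstream had 152 and 149 fragments at 0 h and 100 and 68 at 1 h (-0.53, adjusted p = 0.0107), a call lost without either 0 h replicate (0.059 and 0.11) or replicate 2 of 1 h (0.065). The Socs2 region centred at 23.9 kb had 238 and 193 at 0 h and 136 and 123 at 1 h (-0.39, adjusted p = 0.0422), a call lost without either 0 h replicate (0.30 and 0.089) or replicate 1 of 1 h (0.36).

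At 2 h the 2 higher regions were the intronic Il7r region and the Med12 promoter. The Il7r region had 14 and 21 fragments at 0 h, 19 and 22 at 30 min, 21 and 16 at 1 h, and 24 and 22 at 2 h, a centred change of 1.00 (adjusted p = 0.00863). Divided by coverage the change was 0.52 (adjusted p = 0.11), and the call was lost without replicate 1 of 0 h (0.19) or replicate 1 of 2 h (0.067). The Med12 promoter had 42 and 32 at 0 h and 50 and 38 at 2 h (0.82, adjusted p = 0.0071), which was 0.35 divided by coverage (adjusted p = 0.30) and was lost without replicate 2 of 0 h (0.11) or replicate 1 of 2 h (0.10). The fragment numbers of 0 h and 2 h overlapped at the Med12 promoter and did not overlap at the Il7r region.

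For Ikaros the pileup scale called 0 of 9 regions at 30 min (5.61% of all regions higher and 9.05% lower), 1 at 1 h and the same region at 2 h, the Socs2 intron, with 53 and 70 fragments at 0 h, 26 and 25 at 30 min, 29 and 28 at 1 h, and 27 and 31 at 2 h. Over all Ikaros regions, 8.48% were called higher and 12.1% lower at 1 h, and 7.61% and 12.5% at 2 h. The change was -0.81 at 1 h (adjusted p = 0.0191) and -0.67 at 2 h (adjusted p = 0.0499). Divided by coverage it was -0.60 and -0.63 (adjusted p = 0.26 and 0.29), and at 1 h the call was lost without any 1 of the 0 h or 1 h libraries (0.051 to 0.13). The call at 2 h was lost without any 1 of the 0 h, 1 h or 2 h libraries (0.066 to 0.25). The 0 h Ikaros libraries had the greatest coverage.

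**Figure D5:**
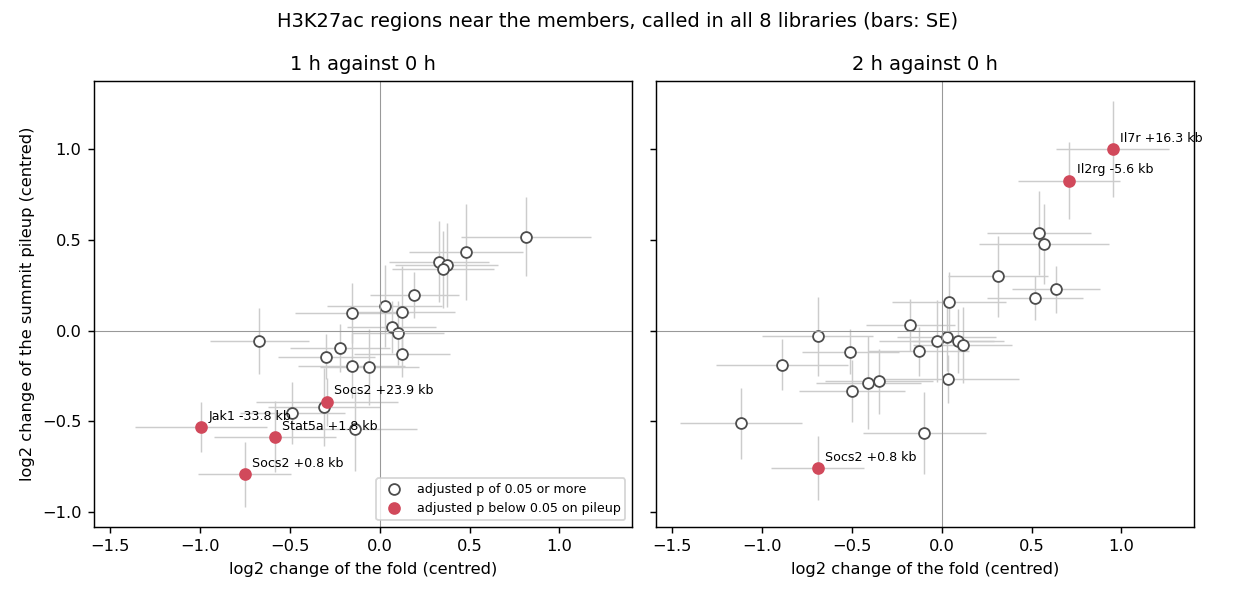
Centred log2 change of H3K27ac at 1 h and 2 h against 0 h for the 24 regions near the 10 genes called in all 8 libraries, by fold enrichment (horizontal axis) and by recovered summit pileup (vertical axis). Bars are standard errors, and filled points had an adjusted p below 0.05 on the pileup. The filled points at 1 h are Socs2 (2 regions), Jak1 and Stat5a, all lower, and at 2 h Socs2, lower, and the Il7r and Il2rg-window regions, higher.

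A further 30 genes of the pathway gave the setting. Promoter H3K27ac was called in both libraries for 27 of them at 0 h and 30 min, 25 at 1 h and 26 at 2 h, where 42.9% to 45.0% of protein-coding genes had it. The 3 genes without it in any library were the ligand genes Il7 and Tslp and the receptor gene Il2rb. Il4ra, the IL-4 receptor alpha chain, had promoter H3K27ac in both libraries at 0 h and 30 min, in 1 at 1 h and in none at 2 h. Ikaros was called there in none at 0 h, 1 at 30 min and both at 1 h and 2 h. Crlf2, Pias3, Ptprc and Bcl2 also had Ikaros in no library at 0 h and in both at 2 h. These genes kept promoter H3K27ac in both libraries of every time. Pim2, a kinase related to Pim1, was without promoter H3K27ac at 1 h only. Ikaros was called at the promoter in both libraries for 12, 7, 17 and 19 of the 30 genes at 0 h, 30 min, 1 h and 2 h, against 12.0%, 7.17%, 21.9% and 21.9% of protein-coding genes. Those called at every time in both libraries were Myc, Ccnd3 (cyclin D3), Ptpn6 (the phosphatase SHP-1) and Sh2b3 (the adaptor LNK). Bcl2, which blocks apoptosis, and Pias3 had Ikaros in 0 libraries at 0 h and in both at 1 h and 2 h, as Il4ra did. Ptpn11 went the other way, with Ikaros in both libraries at 0 h and in 0 at 2 h. CHD4 was called in both for 2, 4, 3 and 5 genes (2.13%, 2.59%, 4.97% and 5.89% of protein-coding genes), with Osm, Myc and Ccnd3 among the 5 at 2 h.

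By fold, 0 of 24 Ikaros, 0 of 9 CHD4 and 0 of 77 H3K27ac regions near these 30 genes passed the threshold at any time. By pileup, 8 of the 77 H3K27ac regions were higher and 11 lower at 1 h, and 13 were higher and 10 lower at 2 h, against 9.60% and 7.45% of all H3K27ac regions at 1 h and 14.1% and 7.97% at 2 h. Of the 24 Ikaros regions, 1 was higher and 4 lower at 1 h, and 1 higher and 3 lower at 2 h, against 8.48% and 12.1% of all Ikaros regions at 1 h and 7.61% and 12.5% at 2 h.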

How the data were processed

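Peak lists from 24 ChIP-seq libraries of B3 cells (Ikaros, CHD4 and H3K27ac at 0 h, 30 min, 1 h and 2 h, 2 replicates each) were analysed, and the 8 input libraries were not analysed here. Groups came from the labels. Per the labels and methods, the authors aligned reads to mm10 with Bowtie2 2.4.2, marked duplicates with Picard 2.23.7 and called peaks with MACS2 2.2.7.1 (broad peaks for CHD4, narrow peaks for the other targets), and made tracks with deepTools 3.5.0. Settings are described for 0 h, 1 h and 2 h, and those of the 30 min libraries and the input paired with each library are not given in the sources used here. Each deposited list gives 1 library's peaks, with a fold enrichment (a ratio to the local background), the −log10 of the p-value and q-value, and a display score. The authors' score was not used in any comparison.

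Peaks within 50 kb of a TSS (GENCODE M21) of the 10 genes were taken, and distances are from the centre of a region, positive in the direction of the gene. Peaks of the 8 lists of a target were merged where they overlapped. Log2 fold (highest peak per region), centred on each library's median, was tested with limma 3.58.1 (R 4.3.3) over all regions called in all 8 libraries, each time against 0 h, with Benjamini-Hochberg adjustment over all of them and a threshold of 0.05. MACS2 derives the fold and p of a narrow peak from the same pileup, with a pseudocount of 1, so summit pileup and coverage were recovered from both deposited values. Among peaks with a −log10 p below 40, 97.9% to 100% of recovered pileups were whole fragments, within 0.05. Stronger peaks were outside this check, and the scaling of a library was itself chosen so that pileups came out whole. The recovered pileups were a second scale for limma. The fit and the recovery were tested on simulated data. Python 3.11.15 with pandas 2.3.3, NumPy 2.4.6 and SciPy 1.17.1 did the rest. With 2 libraries per group, an exact permutation test could not reach the threshold, and none was used. Since the lists give no read counts, neither a count model nor counting intervals were computed.

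By rule, the regions named for each of the 10 genes and each target were those at its own promoter, the distal region with the highest mean rank of fold, and any region past the threshold, gained or lost, with weak or numerous ones given by range. A gained region was called in both 2 h libraries and in neither 0 h library, and a lost region the reverse. Bfsp2 was named after values were seen. The genes and lists were chosen with earlier results of these data known. Replicate numbers were not treated as a pairing, and the labels do not say whether same-numbered libraries share a culture. Deviations of same-numbered libraries correlated between -0.05 and 0.18. Alternatives changed the window, promoter distance, peak thresholds, overlap, list length, scale, centring and libraries.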

Additional observations from a re-analysis of the deposited data

How the results depend on the processing

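Counts of regions past the threshold near the 10 genes, 0 in every comparison by centred fold, moved with the scale. By recovered pileup they were 1 for Ikaros at 1 h and at 2 h, 4 for H3K27ac at 1 h and 3 at 2 h, and a replicate block on the pileup gave the same counts (1, 1, 4 and 3). Replicate numbers were not treated as a pairing, and with the replicate block the counts near the 10 genes by fold stayed at 0. Over all regions the block changed the calls by fold, from 152 to 189 for Ikaros at 1 h and from 34 to 20 for H3K27ac at 1 h. Pileup divided by coverage without centring gave 4 of 24 for H3K27ac at 1 h (9.43% of all regions) and 8 at 2 h (27.4% of all), and reversed the Socs2 region centred at 23.9 kb at 2 h, to -0.74 (adjusted p = 0.015) from 0.04. Fold without centring gave 1 of 24 for H3K27ac at 2 h (2.89% of all regions), and a 100 kb window gave 1 of 16 for Ikaros at 1 h (6.59% of all). With libraries left out in turn, on either scale, the counts ranged from 0 to 1 for Ikaros at 30 min, 1 h and 2 h, and from 0 to 4 for H3K27ac at 1 h and 2 h. The pileup with the replicate block, over coverage or with libraries left out, and the other settings for the Il7r peak number, were chosen after seeing the data.

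Gained and lost regions at 2 h depended on the rule. Ikaros gained regions, 6 in the report, were 2 in a 20 kb window, 26 when 1 replicate was enough, 2 in lists of equal length, and 6 to 17 without 1 library. Ikaros lost regions, 4, were 8 when 1 replicate was enough and 5 to 7 without 1 library. CHD4 gained regions, 0, were 1 in a 100 kb window, 15 with 1 replicate and 0 to 9 without 1 library, and lost regions, 1, were 5 with 1 replicate, 0 at a −log10 q of 3, 2 with an overlap of 50%, 3 in lists of equal length and 2 to 4 without 1 library. H3K27ac gained regions, 9, were 4 in a 20 kb window, 34 with 1 replicate, 5 at a −log10 q of 3, 5 at a fold of 3, 3 in lists of equal length and 9 to 27 without 1 library, and lost regions, 0, were 4 with 1 replicate, 1 in lists of equal length and 1 to 3 without 1 library. Leaving out a library also lets 1 library decide its time.

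The mean number of peaks near the genes per library, 30.9 for Ikaros, 16.3 for CHD4 and 61.4 for H3K27ac, was 20.3, 9.38 and 36.6 within 20 kb, 50.4, 26.4 and 99.4 within 100 kb, and 24.4, 2.38 and 49.4 at a −log10 q of 3. Own-promoter peaks, 9.75, 3.63 and 12.4, were 12.8 for Ikaros and 14.3 for H3K27ac within 3 kb, and 0.5 for CHD4 at a −log10 q of 3. Of the recomputed counts and means per comparison, with every library kept, 145 stayed within 1.5 times their value (counts) or the spread of libraries (means) and 41, those given here, did not. The mean rise in H3K27ac peaks near Il7r at 2 h, 22, was 14.5 in lists of equal length, 9.5 within 20 kb, 30.5 within 100 kb and 19 to 25 without 1 library. Weak peaks near the calling threshold can be missed in a shallower library. For H3K27ac the 0 h libraries were deeper than the 2 h libraries, with 4.253 and 4.301 against 3.957 and 4.018 fragments per base. The part of depth in the number of weak peaks was not tested.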
